A study of Mus musculus with 12 samples.

Results

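Platelet-derived growth factor (PDGF) ligands and receptors were followed by 7 genes in 3T3 cells, an established mouse fibroblast line. These were the ligand genes Pdgfa, Pdgfb, Pdgfc and Pdgfd, the receptor genes Pdgfra and Pdgfrb, and Pdgfrl, which encodes a PDGF receptor-like protein. They were taken by symbol from the 32544 rows of the deposited count table, and all 7 were among the 14279 genes that passed the filter on low counts. Bulk RNA was sequenced in 12 libraries, 3 for each of 4 groups. Cells of the first group received nothing, and the others were given extracellular vesicles (EVs, membrane particles that cells release) for 24 h. The EVs came from MDA-MB-468, an established human breast cancer line, as control cells (shCon), cells with CRIPTO knocked down (shCr) or cells overexpressing CRIPTO (CrOE). That surface protein belongs to the EGF-CFC family. Table columns were matched to samples by name, and those of CrOE by elimination. The labels name no vehicle for the untreated group and no vesicle dose. None of the 4 groups is a separate control for the overexpressing cells. With CrOE EVs, CRIPTO and any other difference of those donor cells therefore cannot be told apart. They do not say whether the libraries of a group came from separate cultures, so p-values measure the spread between these libraries, which may be technical. The RNA of the donor cells was not analysed here, so these libraries hold no check of the knockdown or the overexpression.

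PDGF ligands are secreted as disulphide-linked dimers of A, B, C or D chains. They act through receptor tyrosine kinases assembled as dimers of the alpha chain (Pdgfra) and the beta chain (Pdgfrb). The alpha chain binds A, B and C chains, while the beta chain is the main receptor of B and D chains. The C and D chains are released in a latent form and need proteolysis to become active. In fibroblasts and other mesenchymal cells, PDGF is a classical mitogen and a signal for migration and matrix production, and 3T3 cells have long served as a test system for it.

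Libraries held 25960054 to 37774020 estimated counts. The first principal component of log2 CPM (counts scaled to a common library total) held 73.7% of the variance and separated the CrOE EV libraries from the rest. On the third, with 4.14% of the variance, shCr EV replicate 1 stood apart from its replicates. The main results keep that library, and values without it are given beside some of them. Mitochondrially encoded genes took 0.495% to 1.70% of counts and varied within groups. Fibroblast markers other than Pdgfra (Col1a1, Col1a2, Dcn, Lum, Thy1, Vim and S100a4) summed to 13610 to 14210 CPM in untreated libraries, and each averaged at least 1 CPM there. Of 8 pericyte and smooth muscle markers, the 6 genes Rgs5, Cspg4, Abcc9, Kcnj8, Des and Myh11 averaged under 1 CPM in every group. The 6 epithelial markers summed to 1.135 to 1.692 CPM in untreated libraries and to 2.385 to 3.298 CPM with CrOE EVs, the highest group. Among them, Epcam was at 0 in all 12 libraries. Cldn4 was at 0 in untreated libraries and averaged 1.15 CPM with CrOE EVs.

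Both signalling receptors were abundant, Pdgfa and Pdgfc were at intermediate levels, and Pdgfb and Pdgfd were scarce. Per kilobase of exon, with all annotated exons merged, Pdgfra averaged 108 and Pdgfrb 99.9 CPM per kb in untreated cells, and these levels were above those of 97% and 96.7% of 13835 genes with a known length. Pdgfrl followed at 21.3 CPM per kb. Pdgfc at 8.55 and Pdgfa at 8.34 CPM per kb were of like level, and their order turned with the length of the longest coding transcript (12.4 for Pdgfc and 12.6 for Pdgfa), so it was not resolved. Pdgfb was at 0.446 and Pdgfd at 0.177 CPM per kb, above 15.6% and 8.72% of genes. The 4 ligands together came to 17.5 ± 0.432 CPM per kb and the 2 signalling receptors to 208 ± 18.2 (SD, n = 3).

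**Figure D1:**
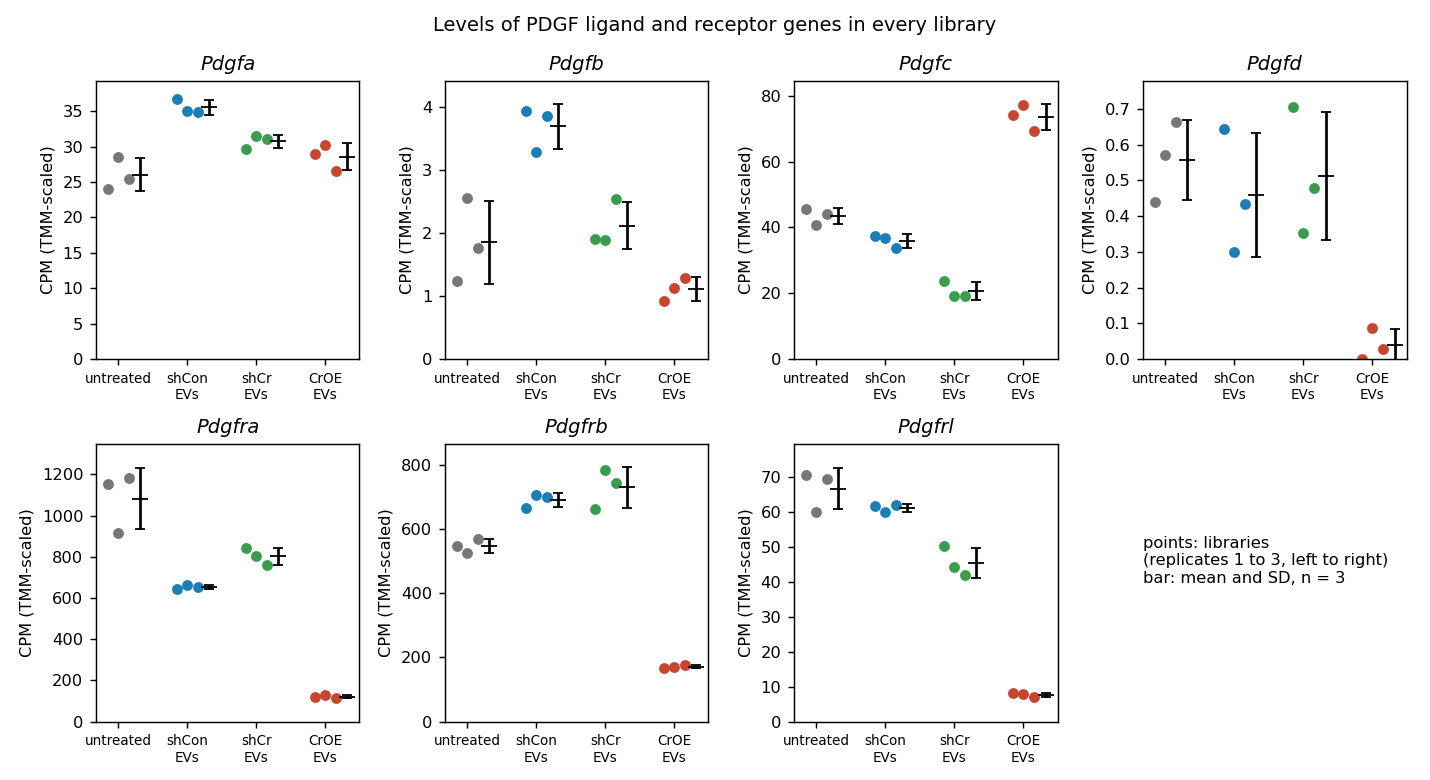
Levels of the 7 PDGF genes in TMM-scaled CPM (y axis, from 0, a scale for each gene) in untreated cells and with shCon, shCr or CrOE EVs (x axis). Points are libraries in replicate order and bars are the mean and SD of 3 libraries. Pdgfra, Pdgfrb, Pdgfrl and Pdgfd were lowest with CrOE EVs, where Pdgfc was highest at 69.4 to 77.1 CPM.

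A difference somewhere among the 4 groups was found for 7 of 7 PDGF genes, in a table where it was found for 81.3% of genes (edgeR's quasi-likelihood F-test with Benjamini-Hochberg adjustment over all genes, call at an adjusted p under 0.05). Pdgfd passed the low-count filter only through the groups other than CrOE EVs, so its difference from CrOE EVs supports nothing. Counts and medians that involve CrOE EVs are therefore also given without it. In the F-test among the 4 groups, 6 of 6 members were called without Pdgfd. In the single comparisons the members were called as follows. With shCon EVs 5 were called against untreated cells, where 38.1% of all genes were called, with 3 higher (18% of all genes) and 2 lower (20.2%). With shCr EVs 5 were called, where 37.3% of all genes were called, with 2 higher (18.4% of all genes) and 3 lower (18.8%). With CrOE EVs 6 were called, where 73.7% of all genes were called, with 1 higher (36.7% of all genes) and 5 lower (37%). Without Pdgfd, 5 of 6 were called, 1 higher and 4 lower. The median log2 fold change of the members with CrOE EVs was -1.68, or -1.20 without Pdgfd, where the median of all genes was 0.008. Irrespective of sign the medians were 1.68 and, without Pdgfd, 1.22, where that of all genes was 0.60.

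Pdgfra, the alpha receptor, had 1153, 915 and 1180 CPM in the untreated libraries. It had 643, 663 and 652 CPM with shCon EVs, 843, 803 and 760.2 with shCr EVs, and 122, 128 and 113 with CrOE EVs. The 4 groups did not overlap, and untreated replicate 2 was the lowest library of its group. Relative to untreated cells Pdgfra fell with shCon EVs (log2 fold change -0.73, SE 0.09, edgeR adjusted p = 2.8e-05) and with shCr EVs (-0.43, SE 0.09, edgeR adjusted p = 0.00149). With CrOE EVs it fell 8.95-fold (log2 fold change -3.16, SE 0.09, edgeR adjusted p = 7.1e-12), and its rank fell from above 97% to above 70.1% of genes. This is bulk RNA, in which fewer cells of a type and less RNA per cell cannot be told apart. The summed fibroblast markers without Pdgfra, at 13610 to 14210 CPM in untreated libraries, were at 15100 to 15200 CPM with shCon EVs. That sum is mostly Col1a1 and Col1a2, and Col1a1 averaged 4535 CPM in untreated cells and 6557 with shCon EVs. With shCon EVs 1 of the 7 markers was called higher and 3 lower (median log2 fold change -0.125). Of all genes 18% and 20.2% were called so. The summed markers were at 10470 to 11720 CPM with shCr EVs and 4169 to 4363 with CrOE EVs. With CrOE EVs 7 of 7 of those markers were called lower, where 37% of all genes were. Their median log2 fold change was -2.65, where that of all genes was 0.008. Lum is 1 of the 7 and averaged under 1 CPM there, with 1 count in all. It passed the low-count filter only through the other groups, so its fall supports nothing. The part of these markers in the fall of Pdgfra with CrOE EVs was not tested.

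Pdgfrb, the beta receptor, had 548, 525 and 568 CPM in untreated libraries. It had 666, 705 and 698 CPM with shCon EVs, 661, 784 and 744 with shCr EVs, and 168, 170.2 and 176 with CrOE EVs. Every library given shCon or shCr EVs lay above the untreated ones, and every CrOE EV library lay below them. Pdgfrb thus rose with shCon EVs (log2 fold change 0.33, SE 0.06, edgeR adjusted p = 0.00106) and shCr EVs (0.42, SE 0.06, edgeR adjusted p = 0.000193). It fell 3.19-fold with CrOE EVs (log2 fold change -1.67, SE 0.06, edgeR adjusted p = 7.9e-11). Set directly against shCon and shCr EVs, CrOE EVs gave log2 fold changes of -2.01 and -2.09 (edgeR adjusted p = 2e-11 and 1.2e-11). Pericytes and smooth muscle cells are the classical bearers of the beta chain. Their 8 markers summed to 32.4 to 35.3 CPM in untreated libraries, 21.1 to 23.6 with shCon EVs, 20.2 to 25.4 with shCr EVs and 6.04 to 6.15 with CrOE EVs. Since 6 of the 8 averaged under 1 CPM, the sum is mostly Notch3 (27.5 CPM in untreated cells) and Mcam (5.12 CPM) and does not measure pericytes. Their part in the changes of Pdgfrb was not tested.

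The alpha and beta chains moved apart with shCon and shCr EVs. As a ratio within each library, which needs no scaling between libraries, log2 of Pdgfra over Pdgfrb counts was 1.07, 0.80 and 1.06 in untreated cells and -0.05, -0.09 and -0.10 with shCon EVs. It was 0.35, 0.03 and 0.03 with shCr EVs and -0.46, -0.41 and -0.64 with CrOE EVs. The groups did not overlap. Their means were 0.98 ± 0.15, -0.08 ± 0.02, 0.14 ± 0.18 and -0.50 ± 0.12 (SD, n = 3 each), and they differed in an exact permutation test of the F statistic over 369600 arrangements (p = 6.5e-05, the smallest that it can give). The mean ratio differed from that of untreated cells by -1.06 with shCon EVs, -0.84 with shCr EVs and -1.48 with CrOE EVs. Replicate 1 was the highest shCr EV library, and without it shCr EVs differed by -0.94 from untreated cells, and from shCon EVs by 0.11 in place of 0.22. Each pair of groups had an exact two-sided permutation p of 0.1, the smallest that 3 against 3 allows. Per length, Pdgfra made up 51.8% of the sum of both chains in untreated cells, 34.1% with shCon EVs, 37.6% with shCr EVs and 27.8% with CrOE EVs. With the longest coding transcripts those shares were 60.9%, 42.9%, 46.6% and 35.9%, in the same order. The sum itself was 191 ± 4.72 CPM per kb with shCon EVs and 213 ± 9.41 with shCr EVs, and 43.3 ± 0.542 with CrOE EVs (SD, n = 3).

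Pdgfrl, whose product resembles the ligand-binding part of a PDGF receptor and lacks a kinase domain, followed Pdgfra with CrOE EVs but not with shCon EVs. It had 70.5, 60.0 and 69.5 CPM in untreated libraries, 61.6, 59.9 and 62.0 with shCon EVs, 50.3, 44.2 and 42.0 with shCr EVs, and 8.15, 7.86 and 7.02 with CrOE EVs. The shCon EV range overlapped the untreated one, and those of the other EV groups lay below both. The log2 fold change with shCon EVs was -0.12 (95% interval -0.30 to 0.05, edgeR adjusted p = 0.24), which is no call. It fell with shCr EVs (log2 fold change -0.55, SE 0.08, edgeR adjusted p = 0.000139) and 8.69-fold with CrOE EVs (-3.12, SE 0.09, edgeR adjusted p = 6.3e-12).

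**Figure D2:**
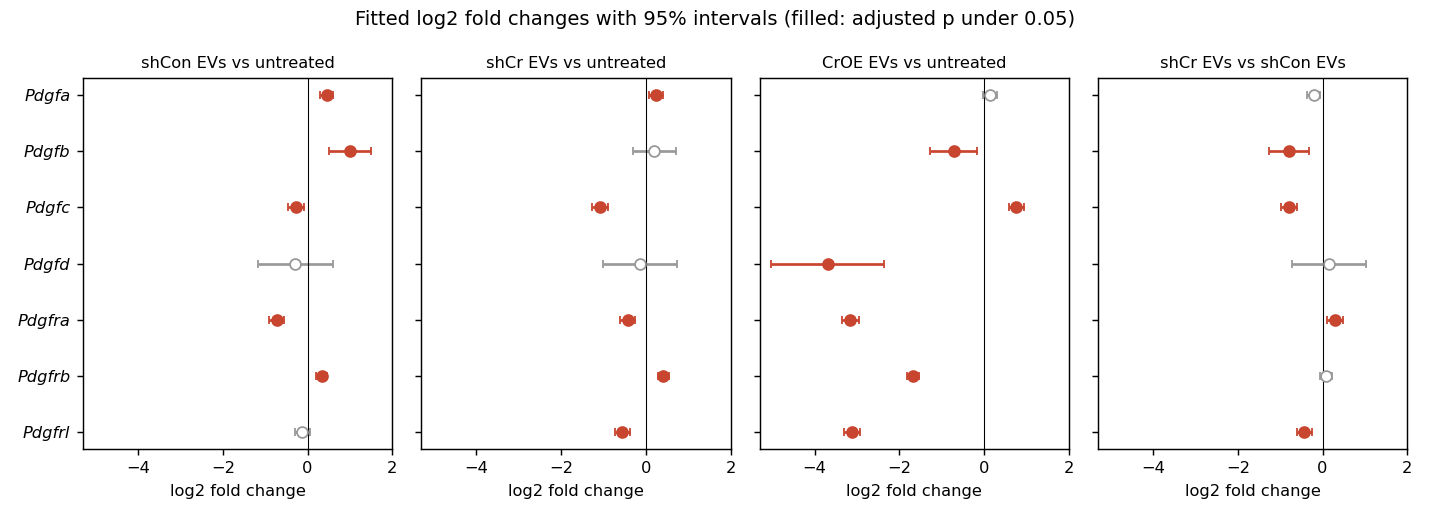
Log2 fold changes of the 7 PDGF genes (x axis) with 95% intervals from the edgeR fit, in the comparisons of shCon, shCr and CrOE EVs with untreated cells and of shCr with shCon EVs (panels). Filled points have an adjusted p under 0.05. With CrOE EVs Pdgfra, Pdgfrl and Pdgfd lay at or below -3.12 (Pdgfd with 4 counts in all there), and Pdgfc at 0.76 was the only filled point above 0.

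Among the ligands, Pdgfc changed in both directions. It had 45.6, 40.8 and 44.2 CPM in untreated libraries, 37.4, 36.7 and 33.6 with shCon EVs, 23.8, 19.2 and 19.0 with shCr EVs, and 74.3, 77.1 and 69.4 with CrOE EVs. The 4 groups did not overlap. Pdgfc encodes the C chain, a ligand of the alpha receptor. It fell with shCr EVs (log2 fold change -1.08, SE 0.09, edgeR adjusted p = 9.8e-07) and rose 1.69-fold with CrOE EVs (0.76, SE 0.08, edgeR adjusted p = 2.8e-06). Between CrOE and shCr EVs it differed 3.57-fold (log2 fold change 1.84, SE 0.09, edgeR adjusted p = 6.2e-10), and between CrOE and shCon EVs the log2 fold change was 1.04 (edgeR adjusted p = 1.5e-07). The fall with shCon EVs was small (log2 fold change -0.28, SE 0.09, edgeR adjusted p = 0.0214). It was no call without untreated replicate 1, untreated replicate 3 or shCon EV replicate 3 (edgeR adjusted p = 0.0782, 0.0613 and 0.0865). Without shCr EV replicate 1, the highest of its group, the log2 fold change with shCr EVs was -1.19 (edgeR adjusted p = 4.2e-08).

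Pdgfa, the A chain and also a ligand of the alpha receptor, changed by smaller amounts. It had 24.0, 28.6 and 25.5 CPM in untreated libraries, 36.8, 35.1 and 34.9 with shCon EVs, 29.7, 31.5 and 31.1 with shCr EVs, and 29.0, 30.3 and 26.6 with CrOE EVs. The shCon EV libraries were above all others, and the CrOE EV libraries overlapped the untreated ones. Pdgfa rose with shCon EVs (log2 fold change 0.45, SE 0.07, edgeR adjusted p = 0.000329). It also rose with shCr EVs (0.24, SE 0.07, edgeR adjusted p = 0.0188), which was no call without untreated replicate 1, untreated replicate 3 or shCr EV replicate 2 (edgeR adjusted p = 0.121, 0.0782 and 0.0592) or in a model of only these 2 groups (0.0848). With CrOE EVs the log2 fold change was 0.14 (95% interval -0.02 to 0.29, edgeR adjusted p = 0.104). That was no call, but became one without untreated replicate 2 (0.21, edgeR adjusted p = 0.0167) or CrOE EV replicate 3 (0.19, edgeR adjusted p = 0.0443).

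The balance between the C and A chains shifted with the EV group. Log2 of Pdgfc over Pdgfa counts was 0.93, 0.51 and 0.80 in untreated cells, 0.03, 0.06 and -0.05 with shCon EVs, -0.32, -0.71 and -0.71 with shCr EVs, and 1.36, 1.35 and 1.38 with CrOE EVs. No groups overlapped, with shCr EVs lowest and CrOE EVs highest. Means were 0.74 ± 0.21, 0.01 ± 0.06, -0.58 ± 0.22 and 1.36 ± 0.02 (SD, n = 3 each; exact permutation test of the F statistic, p = 6.5e-05, the smallest possible). Each pair of groups had an exact permutation p of 0.1, the smallest possible for a pair. The gap between CrOE and shCr EVs was 1.95 on the log2 scale, or 2.07 without shCr EV replicate 1. Per length, Pdgfc was 48.9% of the summed ligand level in untreated cells, 36.2% with shCon EVs, 27.8% with shCr EVs and 60.5% with CrOE EVs. Pdgfa was 47.6%, 58.5%, 67.6% and 38.3%. With the longest coding transcripts Pdgfc was 48.0%, 35.3%, 27.0% and 59.4%.

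**Figure D3:**
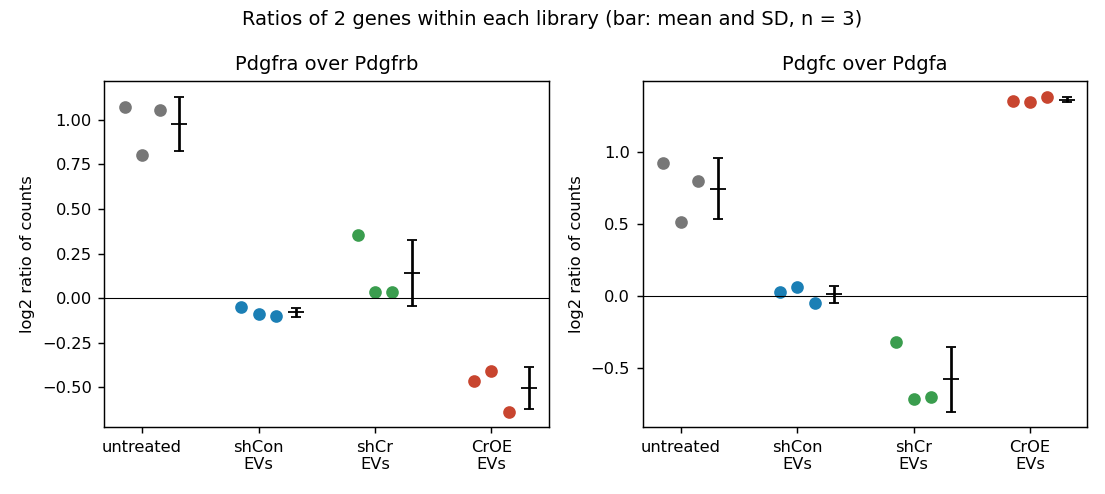
Log2 ratios of the counts of 2 genes in the same library (y axis), Pdgfra over Pdgfrb and Pdgfc over Pdgfa, in untreated cells and with each kind of EVs (x axis). Points are libraries and bars are the mean and SD of 3. With CrOE EVs the receptor ratio was lowest (-0.64 to -0.41) and the ligand ratio highest (1.35 to 1.38).

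Pdgfb, the B chain and a ligand of both receptors, was a low-count gene. It had 1.25, 2.55 and 1.77 CPM in untreated libraries, 3.94, 3.29 and 3.86 with shCon EVs, 1.90, 1.89 and 2.54 with shCr EVs, and 0.92, 1.14 and 1.29 with CrOE EVs. The shCon EV libraries were above all others, while untreated replicate 1 lay within the CrOE EV range. Pdgfb rose with shCon EVs (log2 fold change 0.99, SE 0.23, edgeR adjusted p = 0.00419). With shCr EVs the log2 fold change was 0.20 (95% interval -0.31 to 0.71, edgeR adjusted p = 0.545). It fell with CrOE EVs (-0.72, SE 0.25, edgeR adjusted p = 0.0194), which was no call without untreated replicate 2 (-0.43, edgeR adjusted p = 0.125) or CrOE EV replicate 1 (edgeR adjusted p = 0.0728). CrOE against shCon EVs differed more, with a log2 fold change of -1.72 (SE 0.23, edgeR adjusted p = 2.2e-05), and CrOE against shCr EVs gave -0.92 (SE 0.24, edgeR adjusted p = 0.00392).

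Pdgfd, the D chain and a ligand of the beta receptor, was near the limit of detection. Its rounded counts were 12, 15 and 18 in untreated libraries, 18, 9 and 12 with shCon EVs, 20, 11 and 18 with shCr EVs, and 0, 3 and 1 with CrOE EVs. CrOE EV libraries were all below the rest, which overlapped one another. Over each group, 45 counts in untreated cells stood against 4 with CrOE EVs, a level 14.1 times as high in untreated cells (95% counting interval 5.16 to 54.2). For the shCon and shCr groups the ratios to CrOE EVs were 11.5 (4.16 to 44.4) and 12.8 (4.69 to 48.8). The intervals hold the error of counting alone, as reads that are PCR copies could not be set apart. Pdgfd passed the low-count filter only through the groups other than CrOE EVs. These ratios to CrOE EVs therefore describe the counts and support nothing about a fall. No call was made for shCon EVs (log2 fold change -0.29, 95% interval -1.18 to 0.60, edgeR adjusted p = 0.618) or shCr EVs (-0.14, edgeR adjusted p = 0.817) against untreated cells; at these counts, changes within such an interval were not detectable.

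The question behind shCr against shCon EVs is whether EVs from CRIPTO-depleted cells act differently on fibroblasts. Between these groups 4 PDGF genes were called, against 8.73% of all genes. Of these, 1 was higher (5.22% of all genes) and 3 were lower (3.51%). Pdgfc was lower with shCr EVs (log2 fold change -0.80, SE 0.09, edgeR adjusted p = 0.000131) and so was Pdgfrl (-0.43, SE 0.08, edgeR adjusted p = 0.00531). Without shCr EV replicate 1 they were at -0.92 and -0.51 (edgeR adjusted p = 6.3e-06 and 0.000551). Pdgfra was higher with shCr EVs (0.30, SE 0.09, edgeR adjusted p = 0.0496) and Pdgfb lower (-0.80, SE 0.22, edgeR adjusted p = 0.0427). Both of those calls were lost without any 1 shCon EV replicate, and without shCr EV replicate 1 or 2. Adjusted p then ran from 0.087 to 0.155 for Pdgfra and from 0.0814 to 0.141 for Pdgfb (edgeR). The call of Pdgfra was also lost with DESeq2's size factors (adjusted p = 0.0559). The other members were no calls: Pdgfa at -0.21 (edgeR adjusted p = 0.0934, groups not overlapping), Pdgfrb at 0.08 (95% interval -0.05 to 0.22, edgeR adjusted p = 0.501) and Pdgfd at 0.15 (edgeR adjusted p = 0.873).

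CrOE EVs were also set against each of the other EV groups. Against shCon EVs 7 of 7 members were called, where 72.6% of all genes were called. Of these, 1 was higher (36.5% of all genes) and 6 were lower (36.1%). Without Pdgfd, 1 was higher and 5 were lower. The higher one was Pdgfc. The falls ran from -0.31 for Pdgfa (SE 0.07, edgeR adjusted p = 0.00146) to -2.99 for Pdgfrl (SE 0.09, edgeR adjusted p = 1.1e-11), leaving aside Pdgfd with its few counts, and Pdgfra was at -2.43 (SE 0.09, edgeR adjusted p = 7.6e-11). Against shCr EVs 6 were called, where 73.9% of all genes were called, with 1 higher (36.9% of all genes) and 5 lower (37%), or 4 lower without Pdgfd. Pdgfra was at -2.73 and Pdgfrl at -2.57 (edgeR adjusted p = 2.3e-11 and 3.6e-11), while Pdgfa at -0.10 (95% interval -0.26 to 0.05, edgeR adjusted p = 0.202) was no call.

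The stretch of DNA before the start site is shown for Pdgfra and Pdgfc, as the receptor that fell most in CPM with CrOE EVs and the ligand that rose with those EVs. Both are RefSeq sequences of the GRCm38.p6 assembly, the 250 bases before the annotated start on the + strand, at chr5:75152001-75152250 for Pdgfra and chr3:81036166-81036415 for Pdgfc. Capitals mark CpG dinucleotides.

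Pdgfra: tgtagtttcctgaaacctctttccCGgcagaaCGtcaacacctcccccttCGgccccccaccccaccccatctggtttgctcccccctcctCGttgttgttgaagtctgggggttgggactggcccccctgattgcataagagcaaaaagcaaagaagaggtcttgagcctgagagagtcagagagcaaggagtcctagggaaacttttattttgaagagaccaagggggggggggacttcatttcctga

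Pdgfc: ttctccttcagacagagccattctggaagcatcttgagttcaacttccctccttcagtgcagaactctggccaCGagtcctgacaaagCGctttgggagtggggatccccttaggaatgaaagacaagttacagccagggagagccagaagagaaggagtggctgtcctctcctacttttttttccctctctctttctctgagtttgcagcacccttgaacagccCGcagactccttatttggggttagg

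Both windows are poor in CpG, with 4 in Pdgfra and 3 in Pdgfc, where the median of 32851 RefSeq windows of that length was 6. The 2 annotated windows of Pdgfa hold 19 and 28, and that of Pdgfd holds 3. RefSeq windows were found for these 4 members. Windows on the chromosome of Pdgfrb were left out of the set and its medians, so none is given for that gene. GC content was 54.4% in the Pdgfra window and 50.8% in the Pdgfc window, near the median of 52.4%. Searches on both strands for a GC box (GGGCGG, in 32.7% of windows), a CCAAT box (CCAAT, 33.8%), a TATA box (TATAAA, 12.4%), an AP-1 site (TGANTCA, 6.75%), a cAMP response element (TGACGTCA, 1.55%) and a C/EBP-ATF element (TGATGNAA, 3.45%) found no match in either window. An E box (CANNTG, 66.2%) occurs once in Pdgfra, 182 bases before the start, and not in Pdgfc. The Pdgfa windows hold 1 and 2 GC boxes and the Pdgfd window holds 1 TATA match. These matches are letters in a window, not shown to be sites in these cells.

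In the GENCODE M21 annotation of GRCm38, Pdgfa lies on chromosome 5 at 138976014 to 138997370 on the - strand and Pdgfra on the same chromosome at 75152292 to 75198215 on the + strand. Pdgfb lies on chromosome 15 (79995874 to 80014977, - strand), Pdgfc on chromosome 3 (81036416 to 81214040, + strand), Pdgfd on chromosome 9 (6168584 to 6378850, + strand) and Pdgfrl on chromosome 8 (40926212 to 40990785, + strand). Some of these starts differ from the RefSeq starts used for the windows above. Both Pdgfa windows lie inside the gene as bounded here, and the Pdgfra and Pdgfd windows end some bases before the starts given here. Exons of the antisense gene 6330403L08Rik cover 813 bases of Pdgfa exons, those of Gm16000 cover 147 bases of Pdgfc, and those of Gm42802 and Gm42803 cover 622 bases of Pdgfra. Since the use of read strand in counting is not given in the sources used here, reads of those stretches cannot be told apart between strands. At most 1.82% of the 31-base stretches of a member occur in another gene.

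Genes around the receptors were described from 5 lists, by counts and medians. The lists were chosen with earlier results of these data known, so their shares beside those of all genes are descriptions, not tests. Of 13 genes for ligand processing and co-receptors 10 were tested. With CrOE EVs 1 was called higher and 8 lower (median log2 fold change -1.26, where the median of all genes was 0.008), with 36.7% of all genes called higher and 37% lower. Plat, which encodes tissue plasminogen activator, a protease that activates the C chain, fell from 134 ± 8.54 to 13.8 ± 1.18 CPM (SD, n = 3; log2 fold change -3.28, SE 0.08, edgeR adjusted p = 1.2e-12). Plau, which encodes urokinase, a protease that activates the D chain, fell from 15.6 ± 2.21 to 1.19 ± 0.327 CPM (-3.69, SE 0.20, edgeR adjusted p = 1.9e-09). Nrp2, a neuropilin co-receptor gene, rose from 343 ± 44.2 to 462 ± 33.4 CPM (0.43, SE 0.09, edgeR adjusted p = 0.000628). With shCon EVs 2 were called higher and 6 lower (median -0.22), with 18% of all genes higher and 20.2% lower. Lrp1, an endocytic co-receptor of the beta chain, rose from 1256 ± 206 to 1759 ± 142 CPM (0.49, SE 0.12, edgeR adjusted p = 0.0063), and Nrp2 rose as well (0.36, SE 0.09, edgeR adjusted p = 0.00605). Nrp1, another neuropilin, fell (-0.39, SE 0.10, edgeR adjusted p = 0.00716). Plau fell slightly (-0.52, SE 0.15, edgeR adjusted p = 0.0182), a call lost without some single libraries (adjusted p up to 0.0691).

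Of 31 genes of receptor-proximal signalling, 31 were tested and showed no common direction. With shCon EVs 5 were called higher and 6 lower (median -0.01; 18% and 20.2% of all genes), with shCr EVs 4 and 6 (0.00; 18.4% and 18.8%), and with CrOE EVs 12 and 11 (0.03; 36.7% and 37%). Fitting the untreated and shCon EV groups alone called 10 lower. Stat5a, a transcription factor gene of the STAT family, fell from 53.9 ± 2.78 to 33.4 ± 0.427 CPM with shCon EVs (log2 fold change -0.69, SE 0.09, edgeR adjusted p = 5.5e-05) and to 9.11 ± 0.168 with CrOE EVs (-2.56, SE 0.10, edgeR adjusted p = 6.4e-11). Its relative Stat3 fell with CrOE EVs from 447 ± 4.69 to 151 ± 2.68 CPM (-1.57, SE 0.05, edgeR adjusted p = 2.4e-11), and Stat5b fell with shCon EVs (-0.43, SE 0.06, edgeR adjusted p = 0.000178). Fyn, a Src family kinase gene, rose with CrOE EVs from 75.2 ± 0.351 to 148 ± 4.81 CPM (0.97, SE 0.04, edgeR adjusted p = 3.4e-10). Pik3cb, a catalytic PI3-kinase subunit gene, rose from 21.1 ± 0.584 to 38.5 ± 0.414 CPM there (0.87, SE 0.06, edgeR adjusted p = 2.4e-08). With shCon EVs Pik3r2, a regulatory PI3-kinase subunit gene, rose (0.43, SE 0.08, edgeR adjusted p = 0.000835).

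Of 16 negative regulators of receptor signalling, 9 were called lower and 2 higher with shCon EVs (median log2 fold change -0.28; 20.2% of all genes lower and 18% higher). With shCr EVs 7 were lower and 4 higher (-0.14; 18.8% and 18.4% of all genes). With CrOE EVs 7 were lower and 4 higher (-0.18), where 37% of all genes were lower and 36.7% higher, so the share of lower genes was near that of all genes. The 4 called higher with CrOE EVs were 2 without untreated replicate 2 or CrOE EV replicate 2. Errfi1, a feedback inhibitor gene of receptor tyrosine kinases, fell from 65.7 ± 5.11 to 25.2 ± 0.607 CPM with shCon EVs (-1.38, SE 0.06, edgeR adjusted p = 1.3e-08). Dusp6, which encodes a phosphatase of ERK, fell from 24.5 ± 1.14 to 9.52 ± 0.297 CPM there (-1.36, SE 0.08, edgeR adjusted p = 7.3e-08). Lrig1 (0.57, SE 0.05, edgeR adjusted p = 2.5e-06) and the ubiquitin ligase gene Cblb (0.33, SE 0.07, edgeR adjusted p = 0.00179) rose with shCon EVs. With CrOE EVs the Sprouty genes Spry1 (-1.70, SE 0.11, edgeR adjusted p = 9.2e-09) and Spry2 (-1.25, SE 0.06, edgeR adjusted p = 8.1e-10) fell, and Spred2 rose (0.51, SE 0.06, edgeR adjusted p = 2.5e-06). The phosphatase gene Ptpn2 rose slightly with CrOE EVs (0.26, edgeR adjusted p = 0.0175), which some single libraries decided (adjusted p up to 0.0716 without one).

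PDGF-inducible genes are genes known to be switched on by PDGF in fibroblasts, and most also answer to other growth factors. Of 19, 14 were called lower and 0 higher with shCon EVs by edgeR (median log2 fold change -0.57), where 20.2% of all genes were lower and 18% higher. None was higher at an unadjusted p under 0.05 or with DESeq2 either. With shCr EVs 12 were lower and 2 higher (-0.55; 18.8% and 18.4% of all genes). With CrOE EVs 12 were lower and 6 higher (-1.36; 37% and 36.7% of all genes), the higher ones at a share near that of all genes. Without untreated replicate 1 or 3, or shCr EV replicate 2 or 3, the 2 called higher with shCr EVs were 1. Ccnd1, the gene of cyclin D1, fell from 288 ± 14.4 CPM to 101 ± 4.97 with shCon EVs (-1.51, SE 0.06, edgeR adjusted p = 5.6e-09) and to 14.1 ± 1.20 with CrOE EVs (-4.36, SE 0.07, edgeR adjusted p = 8.4e-14). Has2, the gene of a hyaluronan synthase, was the other gene with the largest falls, with log2 fold changes of -3.90 and -5.65 (edgeR adjusted p = 2.2e-09 and 2.9e-12). Within the same list, Myc rose with CrOE EVs from 34.9 ± 1.65 to 235 ± 13.9 CPM (2.75, SE 0.10, edgeR adjusted p = 5.5e-11). The immediate early gene Ier3 rose from 53.2 ± 0.934 to 245 ± 11.1 CPM (2.20, SE 0.05, edgeR adjusted p = 9.9e-13).

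**Figure D4:**
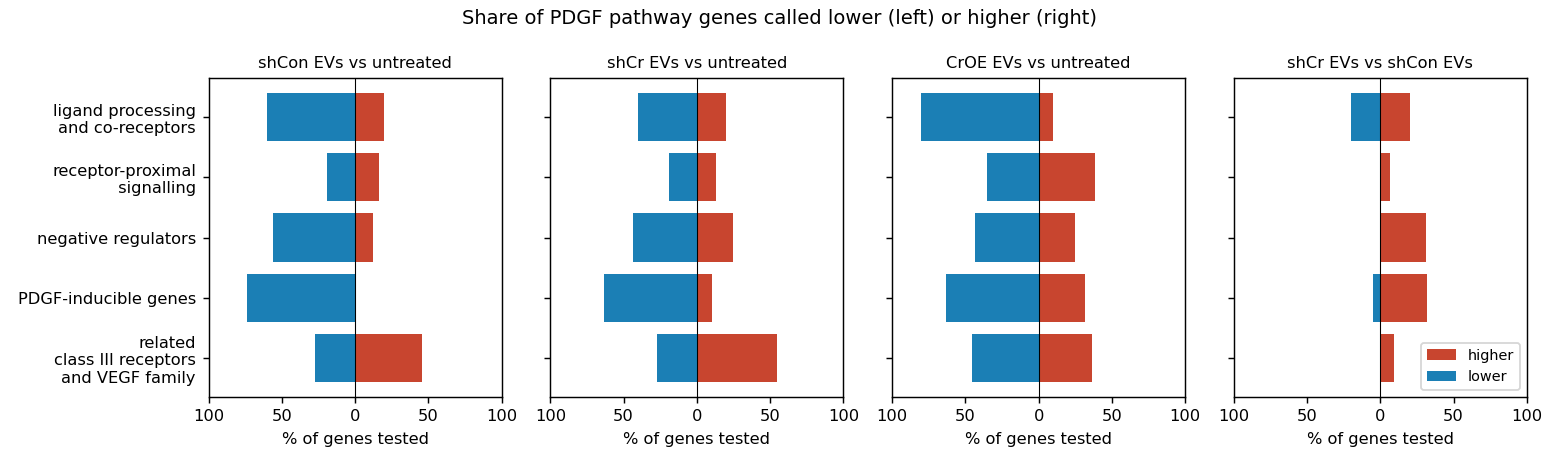
Share of the tested genes of 5 lists (rows) that were called lower (left of 0) or higher (right of 0) in 4 comparisons (panels), in percent. PDGF-inducible genes were called mostly lower with shCon EVs (14 of 19) and shCr EVs (12 of 19), and ligand processing genes with CrOE EVs (8 of 10).

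The relatives of the PDGF family were 13 genes of class III receptors, their ligands and the VEGF family, of which 11 were tested. With shCon EVs 5 were called higher and 3 lower (median log2 fold change 0.22; 18% and 20.2% of all genes). With shCr EVs these were 6 and 3 (0.46; 18.4% and 18.8%). With CrOE EVs they were 4 and 5 (-0.53), near the 36.7% and 37% of all genes. Kdr had 2 to 5 counts per untreated library and 14 to 17 with shCon EVs. Pgf had 15 to 19 per untreated library, 6 to 10 with shCon or shCr EVs and 2 to 4 with CrOE EVs. Each passed the low-count filter only through groups where it was high, so calls of both against untreated cells support nothing. The 5 called higher with shCon EVs were 3 without untreated replicate 1 or 3. Fitting the untreated and shCr EV groups alone gave 3 in place of the 6 called higher with shCr EVs. Figf, the older symbol of the VEGF-D gene, fell from 219.9 ± 9.42 CPM to 160.0 ± 1.48 with shCon EVs (-0.46, SE 0.06, edgeR adjusted p = 3.5e-05) and to 8.93 ± 0.214 with CrOE EVs (-4.62, SE 0.07, edgeR adjusted p = 3.7e-14). Vegfa, the gene of a key angiogenic factor, rose from 102 ± 24.0 to 200.1 ± 15.5 CPM with CrOE EVs (0.97, SE 0.18, edgeR adjusted p = 0.000258). Its rise with shCon EVs (0.64, SE 0.18, edgeR adjusted p = 0.0126) was no call without untreated replicate 1 or 3 (edgeR adjusted p = 0.0604 and 0.0629). Vegfb rose in both comparisons (0.59 with shCon EVs and 0.48 with CrOE EVs, edgeR adjusted p = 4.2e-05 and 5.2e-05). Vegfc fell with shCon EVs (-0.68, SE 0.07, edgeR adjusted p = 9.7e-06) and the VEGF receptor gene Flt1 with CrOE EVs (-0.74, SE 0.09, edgeR adjusted p = 4.2e-06).

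The genes most like each member were found by Pearson's r of log2 CPM, as a description in which all points share the libraries and their group differences. Over the 12 libraries, Tgfbr3 (r = 0.999) and Gpsm2 (0.999) were most like Pdgfra, Dag1 (0.998) and Mrc2 (0.998) most like Pdgfrb, and Olfml3 (0.997) and Sparc (0.996) most like Pdgfrl. An r of at least 0.95 was reached by 1198, 1192 and 1013 of 11544 genes for these 3 members, so such values were common for genes that set the CrOE EV libraries apart. For Pdgfc, with Cubn (0.984) and Lig3 (0.982), it was reached by 41 genes, for Pdgfa, with Rwdd3 (0.955) and Tcte2 (0.939), by 1, and for Pdgfb, with Dedd (0.947) and Rasl12 (0.940), by 0. Over the 9 libraries without CrOE EVs, Sparc was the gene most like Pdgfc (0.991) and also most like Pdgfrl (0.981), and Dag1 was again most like Pdgfrb (0.991). Pdgfra then had Mtmr10 (0.996) and Parva (0.993) as its nearest genes, and Pdgfa had Rbpms2 (0.984) and Trim35 (0.983).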

How the data were processed

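Poly(A)-selected, directional libraries of 3T3 cells were sequenced, per the labels' protocols. The deposited file is a single table in which the authors give an estimated count for each gene symbol and library, with no scaling. The submitters' processing notes name featureCounts and the mm39 build. The aligner, the annotation and the strand setting are not given in the sources used here. The table was taken as estimated counts because 39.8% of its values were not whole. The design had assumed whole counts, so values were rounded and the test was kept. Columns were matched to samples by name. Those headed only with the protein's name were matched to CrOE by elimination, so the CrOE label of 3 libraries depends on that step. A spreadsheet had turned 27 symbols into dates; none is a PDGF gene.

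Genes were kept by filterByExpr (14279 genes). Differences were tested with edgeR 4.0.16 in R 4.3.3 (glmQLFit, glmQLFTest) on TMM-scaled libraries in one model of the 4 groups (residual degrees of freedom, 8). Benjamini-Hochberg adjustment ran over all genes tested, and an adjusted p under 0.05 was a call. CPM are TMM-scaled. Ratios had 0.5 counts added to both genes. Likeness was computed on log2 CPM (prior count 2) of genes whose average log2 CPM reached 1. Lengths, overlaps and shared 31-base stretches come from GENCODE M21 (GRCm38), a build other than the one in the processing notes. The test was checked on simulated data with known changes.

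All 7 PDGF genes are named. From each list, up to 2 top rises and up to 2 top falls by log2 fold change were named among called genes of the same minimum level, for CrOE EVs and for shCon EVs against untreated cells. A gene that this rule gave is counted in its list but not reported here by name. The members and lists were chosen with earlier results of these data known. Alternatives were DESeq2 1.42.0 and its size factors, 2 other low-count filters, the replicate number as a block, models of 2 groups, each library left out and, for ratios, another offset.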

Additional observations from a re-analysis of the deposited data

Results flagged for a closer look

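For 3 PDGF genes, EVs of different donor cells gave called changes in opposite directions against untreated cells, and the difference between the EV groups was itself tested with edgeR's quasi-likelihood test. These comparisons share the untreated libraries. The share of all genes with such opposite calls was not computed, so the 3 members cannot be called unusual. Of all genes 38.1%, 37.3% and 73.7% were called with shCon, shCr and CrOE EVs against untreated cells. Pdgfb rose with shCon EVs but fell with CrOE EVs, and CrOE minus shCon EVs was -1.72 on the log2 scale (adjusted p = 2.2e-05). The fall of Pdgfb against untreated cells was lost without untreated replicate 2 (edgeR adjusted p = 0.125) or CrOE EV replicate 1 (0.0728), so its opposite directions rest on those libraries. Pdgfc fell with both shCon and shCr EVs but rose with CrOE EVs, with differences of 1.04 from shCon EVs and 1.84 from shCr EVs (edgeR adjusted p = 1.5e-07 and 6.2e-10). The fall with shCon EVs was lost without untreated replicate 1, untreated replicate 3 or shCon EV replicate 3 (edgeR adjusted p = 0.0782, 0.0613 and 0.0865). Pdgfrb rose with both shCon and shCr EVs but fell with CrOE EVs, with differences of -2.01 and -2.09 (edgeR adjusted p = 2e-11 and 1.2e-11). These directions of Pdgfrb held without any 1 library of the groups compared.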

How the results depend on the processing

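Of 497 values of single PDGF genes under other settings, 470 kept their direction and their side of the threshold, 21 lost a call, 2 gained one and 4 changed sign. Those that changed sign were no calls: Pdgfb with shCr EVs against untreated cells without untreated replicate 1 (-0.036, in a range up to 0.496 with 1 library left out), Pdgfd in that comparison without shCr EV replicate 2 (0.063, in a range from -0.414), and Pdgfd between shCr and shCon EVs without shCon EV replicate 2 (-0.086) or shCr EV replicate 1 (-0.126), in a range up to 0.468. The comparison of shCr with shCon EVs called 1247 genes. A model of only these 2 groups called 641, and leaving out 1 library gave 632 (without shCon EV replicate 2) to 1396 (without shCr EV replicate 1), with 688 and 666 without shCon EV replicates 1 and 3. PDGF genes called in that comparison were 4, and 2 to 4 with 1 library left out. The cause was not tested. No ratio of 2 genes moved beyond its spread or changed sign under the settings tried.

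Same-numbered libraries of different groups did not deviate together (median r = 0.005 over 18 pairs, 4 above 0.1), and 4 of 12 libraries correlated best with their own number, so numbers were not used as pairs. With the replicate number as a block, 5691, 5529 and 10657 genes were called for shCon, shCr and CrOE EVs against untreated cells (5447, 5320 and 10524 without it) and 1281 between shCr and shCon EVs. The call of Pdgfra between shCr and shCon EVs was lost with the block (edgeR adjusted p = 0.0608). Labels permuted within replicate numbers gave p = 0.0017 for both ratios in an exact test of 13824 arrangements, the smallest it can give. At least 10 counts in every library left no value for Pdgfd, whose few counts limit every statement on it. Depth was enough for intervals of about 0.2 on the log2 scale either way for Pdgfra, Pdgfrb, Pdgfrl, Pdgfa and Pdgfc, and of 0.5 or more for Pdgfb.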
